A study of Mus musculus with 2 samples.

Results

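The genes described here are Ebf1, Ebf2 and Ebf3, 3 members of the early B cell factor family of transcription factors. They were taken by gene symbol from each of 2 single cell RNA sequencing libraries of the embryonic mouse telencephalon, as 3 of the 28001 features of the septal explant library and 3 of the 32286 features of the telencephalic vesicle library. The rule that takes their rows uses no measured value. In the mm10 mouse genome, Ebf1 (ENSMUSG00000057098) lies on the plus strand at chr11:44617317-45008091, Ebf2 (ENSMUSG00000022053) on the plus strand at chr14:67233292-67430918 and Ebf3 (ENSMUSG00000010476) on the minus strand at chr7:137193673-137314445. Annotated genes that overlap them lie on the opposite strand. The largest of these in UMIs was 4930438E09Rik, with 675 UMIs over all barcodes of the vesicle library against 10893 for Ebf2, within which it lies.

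Ebf proteins bind DNA through a zinc-coordinating domain and pair through a helix-loop-helix domain. In the nervous system, they act downstream of proneural basic helix-loop-helix (bHLH) factors of the Neurog group, in cells that leave the cell cycle, migrate and differentiate as neurons. Ebf1 is known for B lymphocytes and, in the brain, for early striatal neurons, Ebf2 for Cajal-Retzius cells and brown fat, and Ebf3 for Cajal-Retzius cells. All 3 are also known from mesenchyme. Cajal-Retzius cells are early-born neurons that settle at the cortical surface and secrete reelin, and those born at the cortical hem or septum carry the transcription factor Trp73 while those born at the ventral pallium do not.

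The septal explants were 1 pool of cells from the septum of 8 E11.5 PGKCre;Rosa26YFP embryos and 4 E12.5 Dbx1Cre;Rosa26tdTomato embryos, from 2 litters each. PGKCre acts broadly, so that YFP marks no lineage, while Dbx1Cre marks the cells that descend from progenitors with Dbx1, a homeobox gene of the septum and ventral pallium. The telencephalic vesicle library was 1 pool of cells from 3 wild-type embryos of 2 litters, with the age given as E12 in the labels and as E11.5 to E12 in the methods of the study. Both are C57BL/6J and carry no mutation by their labels, the Cre and reporter alleles aside. Embryos cannot be told apart within a pool, except that tdTomato can come from the E12.5 embryos alone. The study set these libraries beside its work on Dbx1 and cell adhesion. The comparison made here asks in which classes of early neurons, progenitors and non-neural cells each Ebf gene was found.

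With 1 library per tissue there is no replicate check and no test over samples. Levels are given in CPM, counts scaled to a fixed library total, the unique molecular identifiers (UMIs) of a gene among those of all genes in the summed cells of a class. The 95% Poisson intervals of CPM and of their ratios, and the 95% Clopper-Pearson intervals of shares, cover counting error only. The libraries differ in kit and in counting software, and CPM are not scaled by gene length, so that a level is compared only within 1 gene and 1 library.

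The septal library held 5827 barcodes with a median of 12722 UMIs, and 5384 were kept. The vesicle library held 14283 barcodes with a median of 8503 UMIs, of which 11758 were kept, and 1 barcode sequence occurred in both. Cells were clustered without the Ebf genes, and clusters were called "-like" from markers alone, with 2 of 40 septal clusters (274 cells) and 6 of 43 vesicle clusters (1277 cells) left unnamed. Trp73 itself stood at 249 CPM (septal) and 345 CPM (vesicle) in the Trp73-high Cajal-Retzius-like cells, and at 4.11 and 0 CPM in the Trp73-low ones. In the septal Trp73-low cells, Reln was also below its level over all neuron-like cells (values below), so that their name is weakly held. As another choice of cells, a marker gate took any kept cell, of whatever cluster, with a UMI of set genes. These were Trp73 for Trp73-high cells, Tbr1 with Neurod6 or Neurod2 for pallial neurons and Slc17a6 without Tbr1 for septal ones. The Isl1 type was gated by Isl1 with Gad2 or Dlx5, and the Lhx6 type by Lhx6. GABAergic-like neurons of the vesicle fell into an Isl1 type, with Isl1 at 500.5 CPM in 81.1% of cells, and an Lhx6 type, with Lhx6 at 160 CPM in 55.3%. Isl1 and Lhx6 are homeobox genes of the lateral and medial ganglionic eminences, the sources of striatal projection neurons and of cortical interneurons.

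Free RNA from lysed cells reaches every droplet, and Hba-a1, a haemoglobin gene, had UMIs in 94.2 to 97.9% of the cells of each neuron-like class of the vesicle. Erythroid-like cells, which should lack Ebf RNA, were therefore used as the reference for shares of cells. In the vesicle, 8 of 400 erythroid-like cells held Ebf1 (2%), 3 held Ebf2 (0.75%) and none held Ebf3, which allows a share of up to 0.75% (3 counts of the total, the limit used here for a count of 0), at a median depth of 5428 UMIs. The septal explants had 26 erythroid-like cells (median 29046 UMIs), of which none held Ebf1, which allows a share of up to 11.54%. Ebf2 was found in 2 of these 26 cells (14 UMIs, 19.2 CPM) and Ebf3 in 2 (2 UMIs), and the source of these UMIs was not tested. The 26 cells are too few to serve as a reference for shares of a few percent.

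The 3 genes were low in apical progenitors, the dividing cells that line the ventricle, and high in neurons. Among septal cells, Ebf1 stood at 2.65 CPM (2.23 to 3.11) in 3445 apical progenitor-like cells and at 221 CPM (213 to 230) in 967 neuron-like cells, a ratio of 83.7 (70.8 to 99.6). Ebf2 stood at 1.62 and 101 CPM in the same cells, a ratio of 62.3 (50.2 to 78.2), and Ebf3 at 0.584 and 31.4 CPM, a ratio of 53.8 (37.4 to 79.7). The septal Isl1-type GABAergic-like cells, which are counted among the neuron-like cells, stood at 4.42, 7.63 and 1.205 CPM of Ebf1, Ebf2 and Ebf3. Of the 12728 genes with enough UMIs, 17.7% were at least 2-fold higher in the septal neuron-like cells, and 0.409%, 0.636% and 0.715% had a ratio as high as that of Ebf1, Ebf2 and Ebf3. All 3 members were therefore in the top 1% of genes by this ratio, and Ebf4, the remaining Ebf gene, was not higher, at 0.821 CPM in apical progenitor-like and 0.583 CPM in neuron-like cells.

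Over all neuron-like cells, the vesicle showed the same direction for each gene. Ebf1 stood at 3.44 CPM (3.13 to 3.77) in 6813 apical progenitor-like cells and at 484 CPM (471 to 498) in 1376 neuron-like cells, a ratio of 141 (128 to 156). For Ebf3 the levels were 3.36 and 108 CPM, a ratio of 32.2 (28.8 to 36.0). For Ebf2 they were 15.4 and 249 CPM, and its ratio of 16.2 (15.3 to 17.2) was the lowest of the 3. At least 2-fold higher in the vesicle neuron-like cells were 16.4% of 15801 genes, and 0.1202%, 1.66% and 0.886% had a ratio at least as high as Ebf1, Ebf2 and Ebf3. The apical level of Ebf2 was carried by few cells, since 5.62% of apical progenitor-like cells held a UMI of Ebf2, 57 of them held 10 or more and the highest held 60. With every cell thinned to 3500 UMIs, 2.04% of them held Ebf2, and with other filters or clusterings the ratio of Ebf2 in the vesicle lay between 14.4 and 20.1. Ebf4 stood at 14.4 CPM in apical progenitor-like cells and 12.2 CPM in neuron-like cells of the vesicle. Free RNA can add to the low apical levels, and its part in these ratios was not tested for any of the genes.

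Basal progenitors are the Eomes-expressing intermediate cells that apical progenitors give rise to before neurons, and in them the members parted. Ebf2 was found in 68.8% of 490 septal basal progenitor-like cells at 161 CPM (151 to 172), 99.3-fold (79.9 to 125) above apical progenitor-like cells. Ebf3 was at 20.01 CPM (16.5 to 24.0) there, a ratio of 34.3 (23.0 to 52.4), and Ebf1 at 17.8 CPM (14.5 to 21.6), a ratio of 6.72 (5.17 to 8.71). Ebf2 was above its mean neuronal level in these cells and Ebf1 below its own. The Ebf1 level here moved with the clustering, from 17.5 to 96.6 CPM over 7 other ways of filtering and clustering, the highest at the coarsest. Among 12374 genes, 6.85% were at least 2-fold higher in septal basal progenitor-like than in apical progenitor-like cells.

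In the vesicle, 543 of 646 basal progenitor-like cells (84.1%) held Ebf2, at 550 CPM (532 to 568), and 398 (61.6%) held Ebf3, at 210 CPM (199 to 222). Both levels were above those over all neuron-like cells. Ebf1 was at 61.9 CPM (56.0 to 68.3) with UMIs in 19.5% of the cells, far below its neuronal level. The ratios over apical progenitor-like cells were 18.0 (15.7 to 20.7) for Ebf1, 35.7 (33.8 to 37.8) for Ebf2 and 62.5 (56.1 to 69.7) for Ebf3, against 6.99% of 15603 genes at 2-fold or more. The class was not uniform. A cluster of 68 cells led by Cacna1e, Eomes and Fezf1 had Ebf3 at 424 CPM and Ebf1 at 261.9 CPM, above the other basal progenitor-like clusters of the vesicle, where Ebf3 lay between 100.4 and 218.7 CPM and Ebf1 between 24.7 and 91.4 CPM.

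**Figure D1:**
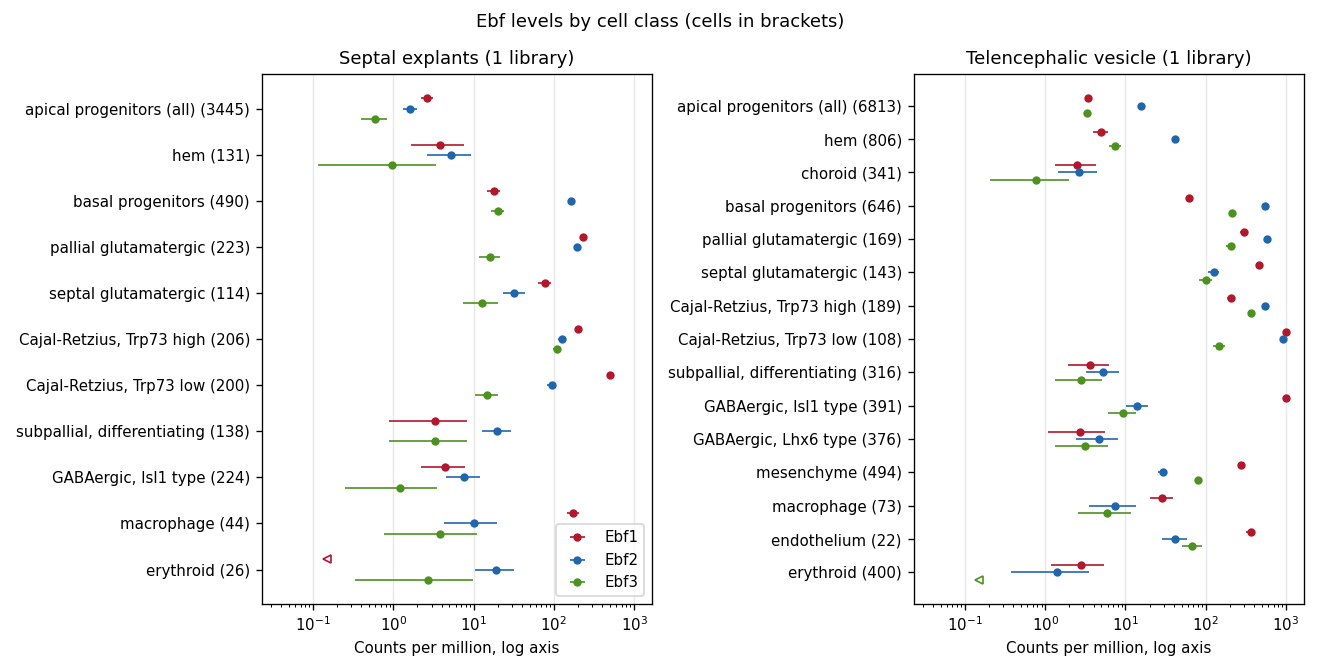
CPM of Ebf1, Ebf2 and Ebf3 (log axis) in each cell class of either library, with Poisson 95% intervals as bars and an open triangle for 0 UMIs. Among the named classes, Ebf3 was highest in the Trp73-high Cajal-Retzius-like cells of both libraries (109.7 and 365 CPM), though not in the vesicle by a marker gate open to cells of any cluster (120 against 210.6 CPM in the pallial gate). Ebf1 stood at 1001 CPM in the Isl1-type GABAergic-like cells of the vesicle and 4.42 CPM in those of the septal explants.

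Each gene had its own order of classes. For Ebf1 in the septal explants, the Trp73-low Cajal-Retzius-like cells were highest, at 501 CPM (475 to 529) with UMIs in 84.5% of 200 cells. Pallial glutamatergic-like neurons followed at 234 CPM (217 to 251), Trp73-high Cajal-Retzius-like cells at 199.5 CPM (182 to 218) and septal glutamatergic-like neurons at 77.0 CPM (62.9 to 93.4). The intervals of the pallial and Trp73-high cells overlapped, so that counting error alone does not separate them. Among the septal glutamatergic-like neurons 1 cell held 41 of the Ebf1 UMIs. Their Ebf1 level ranged from 47.5 to 145.6 CPM over the 7 other ways of filtering and clustering, and was 28.1 CPM by a marker gate. Basal progenitor-like cells were next, and Isl1-type GABAergic-like neurons (4.42 CPM), hem-like cells (3.803 CPM), subpallial differentiating cells (3.27 CPM) and apical progenitor-like cells (2.65 CPM) were at the bottom, close to each other. At the coarsest clustering the top pair changed places, with Ebf1 at 376 CPM in pallial glutamatergic-like neurons and 285 CPM in Trp73-low cells.

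For Ebf1 in the vesicle, the Isl1-type GABAergic-like neurons (1001 CPM, 965 to 1038) and the Trp73-low Cajal-Retzius-like cells (989 CPM, 924 to 1057) were highest, with overlapping intervals. This near tie was found in the main clustering alone. In the 5 other ways that gave the Trp73-low class, its Ebf1 ranged from 557 to 806 CPM. The Isl1 type was the highest named class in each way, at 870.5 to 1070 CPM over the 7 other ways. Septal glutamatergic-like neurons were at 461 CPM (424 to 501), pallial glutamatergic-like neurons at 297 CPM (268 to 329) and Trp73-high Cajal-Retzius-like cells at 207 CPM (185.5 to 231). The order of the glutamatergic pair rested on the clustering. Over the 7 other ways pallial cells ranged from 310.3 to 757 CPM and septal ones from 180 to 504 CPM, with pallial cells higher in all but the finest clustering, and also by a marker gate (194 against 82.6 CPM). Lhx6-type GABAergic-like neurons were at 2.72 CPM, with Ebf1 in 3 of 376 cells (0.798%), below the share in erythroid-like cells. This too changed with the choice of cells, from 0 to 82.8 CPM over the other clusterings, and a marker gate gave 20.2 CPM with Ebf1 in 12 of 296 cells (4.05%). Ebf1 thus spanned neuron classes of glutamatergic and of GABAergic kind, and the Isl1 type stood far above the Lhx6 type in each of these settings.

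Ebf2 in the septal explants was highest in pallial glutamatergic-like neurons, at 192 CPM (177 to 208) in 62.8% of 223 cells, ahead of the basal progenitor-like cells. The Trp73-high Cajal-Retzius-like cells stood at 128 CPM (114 to 143), the Trp73-low ones at 94.5 CPM (83.2 to 107) and the septal glutamatergic-like neurons at 32.2 CPM (23.3 to 43.3). In the vesicle, the Trp73-low Cajal-Retzius-like cells led at 911.5 CPM (849 to 977), with UMIs in 87.0% of 108 cells. Pallial glutamatergic-like neurons (573 CPM, 532 to 617), basal progenitor-like cells and Trp73-high Cajal-Retzius-like cells (545 CPM, 510 to 582) had overlapping intervals below that, and septal glutamatergic-like neurons stood at 126 CPM (107 to 147). These septal glutamatergic-like neurons were higher in each of the 7 other ways, at 145.7 to 471 CPM, and at 217 CPM by a marker gate. The order for Ebf2 rested on how cells were clustered. Over the main and 7 other ways of filtering and clustering, the highest septal class was the pallial one in 5, and the Ebf2 level of the Trp73-low class of the vesicle ranged from 75.8 to 632.6 CPM in the 5 other ways that gave this class.

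Among the named classes, Ebf3 was highest in the Trp73-high Cajal-Retzius-like cells. Of 206 septal Trp73-high cells, 139 (67.5%) held Ebf3, at 109.7 CPM (97.0 to 124). Basal progenitor-like cells, pallial glutamatergic-like neurons (16.0 CPM, 11.8 to 21.2), Trp73-low Cajal-Retzius-like cells (14.6 CPM, 10.4 to 19.9) and septal glutamatergic-like neurons (12.7 CPM, 7.41 to 20.4) followed with overlapping intervals. The Trp73-high cells held 46.9% of all Ebf3 UMIs of the kept septal cells. In the vesicle, 159 of 189 Trp73-high cells (84.1%) held Ebf3, at 365 CPM (336 to 396), with basal progenitor-like cells and pallial glutamatergic-like neurons (203.5 CPM, 179 to 230) next and overlapping. Trp73-low Cajal-Retzius-like cells were at 147 CPM (123 to 175) and septal glutamatergic-like neurons at 99.9 CPM (83.02 to 119). The septal glutamatergic-like level ranged from 101.7 to 190.7 CPM over the 7 other ways and was 88.9 CPM by a marker gate. The Trp73-high class was the highest named class for Ebf3 in the main and all 7 other clusterings of both libraries. It was not in the vesicle when cells were chosen by a marker gate in place of clusters, with 120 CPM (111 to 130) against 210.6 CPM (192 to 230) in pallial glutamatergic-like cells, while the septal gate gave 85.1 against 29.3 CPM. The Trp73 gate takes any cell with a Trp73 UMI, so that it is not a set of Cajal-Retzius-like cells alone. By share of cells, the vesicle gates overlapped for Ebf3, at 68.4% (62.0 to 74.3) and 64.9% (57.4 to 72.0). A pair of unnamed vesicle clusters was also above the Trp73-high class, at 402 and 386 CPM of Ebf3.

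Within the Trp73-high Cajal-Retzius-like cells, the levels of Ebf1 and Ebf2 differed between clusters in opposite directions, for Ebf2 clearly in the vesicle alone, with both genes present in each. The score used for progress of differentiation was the log2 ratio of summed neuronal to summed apical marker UMIs. In the vesicle, the cluster with the lower median score (1.503), led by Gmnc, Ccno and Mcidas, genes known from multiciliated cells, had Ebf1 at 96.4 CPM, Ebf2 at 656 CPM and Ebf3 at 325 CPM. The cluster with the higher score (3.07), led by Cdkn1a and Lhx1, had Ebf1 at 424.5 CPM, Ebf2 at 327 CPM and Ebf3 at 445 CPM. In the septal explants, the cluster of lower score (2.33), led by Ccno and Shisa8, had Ebf1 at 80.8 CPM and Ebf2 at 146 CPM, and that of higher score (3.30), led by Lhx1os and Cdkn1a, had Ebf1 at 292.5 CPM and Ebf2 at 113.5 CPM. Ebf1 was higher and Ebf2 lower in the cluster further along, in both libraries. The septal difference in Ebf2 was small, however, and little larger than that in Ebf3 (98.4 and 119 CPM in the septal clusters).

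Trp73-low Cajal-Retzius-like cells carried Calb2, a calcium-binding protein gene of Cajal-Retzius cells, at 1206 CPM in the septal explants and 647 CPM in the vesicle, with Reln at 77.7 and 547 CPM. The septal Reln level was below the 89.6 CPM over all septal neuron-like cells, so that Reln does not mark this class there. Their 3 septal clusters differed in Ebf1, with 707.5 CPM in the cluster of 106 cells led by Calb2 and Etv1, 332 CPM in 26 cells led by Tfap2e and 270.5 CPM in 68 cells led by Gng8. Ebf2 ranged more widely, from 22.3 CPM in the Gng8 cluster to 210 CPM in the Tfap2e cluster, and Ebf3 from 0 to 26.7 CPM. The 3 septal clusters of pallial glutamatergic-like neurons also varied, from 106 to 435 CPM for Ebf1 and from 27.3 to 367 CPM for Ebf2, both genes being lowest and highest in the same clusters.

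The Isl1-type GABAergic-like neurons of the vesicle, 391 cells, held 29.7% of all Ebf1 UMIs of the kept cells, but Ebf1 was in 96 of them (24.6%). In the cells that held it, the median was 22 UMIs and the highest 188, and 63 cells held 10 or more. The class joined a cluster of 141 cells, with Ebf1 at 2165 CPM (2087 to 2245) in 88 cells (62.4%), and a cluster of 250 cells, with Ebf1 at 6.35 CPM (3.04 to 11.7) in 8 cells (3.2%). Nearly all Ebf1 of the class was thus in 1 cluster, which had the higher median differentiation score (4.85 against 2.77) and the higher median depth (8391 against 6286 UMIs). The part of depth in this difference was not tested. Ebf2 was at 6.68 and 20.3 CPM and Ebf3 at 7.42 and 10.8 CPM in the same clusters. With a marker gate, 706 vesicle cells fell in the Isl1 type and their Ebf1 stood at 319 CPM. In the septal explants, 224 Isl1-type cells had Isl1 at 540 CPM but Ebf1 at 4.42 CPM (2.21 to 7.91) in 4.02% of cells, and 199 of them held no Ebf gene. The tissues cannot be set against each other here, since the dissection, age and kit differ together.

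Outside the neural lineage, the vesicle held 494 mesenchyme-like cells with the collagen gene Col3a1 at 953 CPM. Ebf1 was at 272 CPM (260 to 284) in 58.7% of them, Ebf3 at 80.8 CPM (74.2 to 87.7) in 43.1% and Ebf2 at 29.0 CPM (25.2 to 33.3) in 21.1%, with a median depth of 10995 UMIs. Thinned to 3500 UMIs, 35.5% held Ebf1 and 22.2% held Ebf3. In the main clustering this Ebf1 level overlapped that of the pallial glutamatergic-like neurons, and 19.1% of all Ebf1 UMIs of the kept vesicle cells were mesenchyme-like. Over the 7 other ways of filtering and clustering, the mesenchyme-like cells had 234 to 272 CPM and the pallial ones 310 to 757 CPM. A group of 22 endothelium-like cells, of median depth 30447 UMIs, had Ebf1 at 363 CPM (321 to 409) with UMIs in 90.9% of cells, Ebf3 at 68.3 CPM and Ebf2 at 41.5 CPM.

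The 73 macrophage-like cells of the vesicle had Ebf1 at 28.8 CPM, from 39 UMIs in 5 cells, with Ebf2 at 7.39 CPM and Ebf3 at 5.91 CPM. The 44 septal cells of that name had Ebf1 at 173 CPM (146 to 205), but Col3a1 was found in 75% of them and the macrophage gene Pf4 in 6.82%, so that their markers go against the name. Split after these values were seen, Ebf1 was in 23 of the 32 with at least 3 collagen UMIs (71.9%) and in 3 of the other 12 (25%), with median depths of 15772 UMIs in the 32 and 20891 UMIs in the 12. Choroid plexus-like cells of the vesicle had 2.48 CPM of Ebf1, 2.67 CPM of Ebf2 and 0.762 CPM of Ebf3, near the erythroid-like cells.

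Hem-like cells, apical cells of the signalling centre at the edge of the cortex and a source of Cajal-Retzius cells, stood above other apical cells for Ebf2 in the vesicle. Ebf2 was at 41.9 CPM (39.0 to 44.9) in 806 hem-like cells, with UMIs in 12.53%, against 15.4 CPM over all apical progenitor-like cells, among which the hem-like cells are counted. Ebf1 was at 4.94 CPM and Ebf3 at 7.49 CPM there. In the 131 septal hem-like cells, Ebf2 was at 5.23 CPM, Ebf1 at 3.803 CPM and Ebf3 at 0.951 CPM, all below the glutamatergic-like neuron classes.

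Neural cells were next put in order by the differentiation score and cut into 10 bins of equal size, 504 septal and 915 to 916 vesicle cells per bin. Septal Ebf2 stood at 15.1, 122.5, 138 and 89.8 CPM in bins 7 to 10. Ebf3 stood at 1.91, 17.4, 42.2 and 22.0 CPM in these bins, and Ebf1 at 3.82, 32.7, 120 and 291 CPM. Ebf2 and Ebf3 were highest in bin 9 and lower in bin 10, while Ebf1 was highest in the last bin. Ebf2 first reached at least 50% of its highest bin in bin 8, Ebf3 in bin 9 and Ebf1 in bin 10. Neurog2, the proneural factor, did so in bin 7, and Eomes, Neurod1, Nhlh1 and Nhlh2 in bin 8. Ebf2 thus shared its bin with the bHLH genes Neurod1, Nhlh1 and Nhlh2 at 10 bins but not at 20 or 5. At 20 bins, septal Ebf2, Eomes and the bHLH gene Neurod4 crossed in bin 15 and Neurod1, Nhlh1 and Nhlh2 in bin 16. At 5 bins, Ebf2, Eomes and Neurod4 crossed in bin 4 and the others in bin 5.

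The vesicle also had Ebf1 last, while Ebf2 and Ebf3 shared a bin at 10 bins and kept the septal order at 20. From bin 7 to bin 10, Ebf2 stood at 31.9, 181, 381 and 234 CPM, Ebf3 at 7.40, 60.6, 163 and 103 CPM and Ebf1 at 5.30, 16.9, 125 and 646 CPM. Ebf2 and Ebf3 both crossed 50% of their highest bin in bin 9 and Ebf1 in bin 10, with Neurog2 in bin 8 and Eomes, Nhlh1 and Nhlh2 in bin 9. In 20 bins, the crossing was in bin 15 for Ebf2, 16 for Ebf3 and 19 for Ebf1 in the septal explants, and in bins 16, 17 and 20 in the vesicle. Of 20 vesicle bins, Neurog2 and Neurod4 crossed in bin 16 and Eomes, Neurod1, Nhlh1 and Nhlh2 in bin 17. Ebf1 was last of the 3 Ebf genes in both libraries with 10 and 20 bins. It stayed last in 10 bins when subpallial and GABAergic cells were left out, a choice made after the data were seen. With these cells left out, 20 bins gave bins 15, 16 and 18 for septal Ebf2, Ebf3 and Ebf1. In the vesicle, Ebf2 and Ebf3 then shared bin 17 and Ebf1 crossed in bin 19. With 5 bins, Ebf1 and Ebf3 shared the last bin in the septal explants and all 3 shared it in the vesicle.

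**Figure D2:**
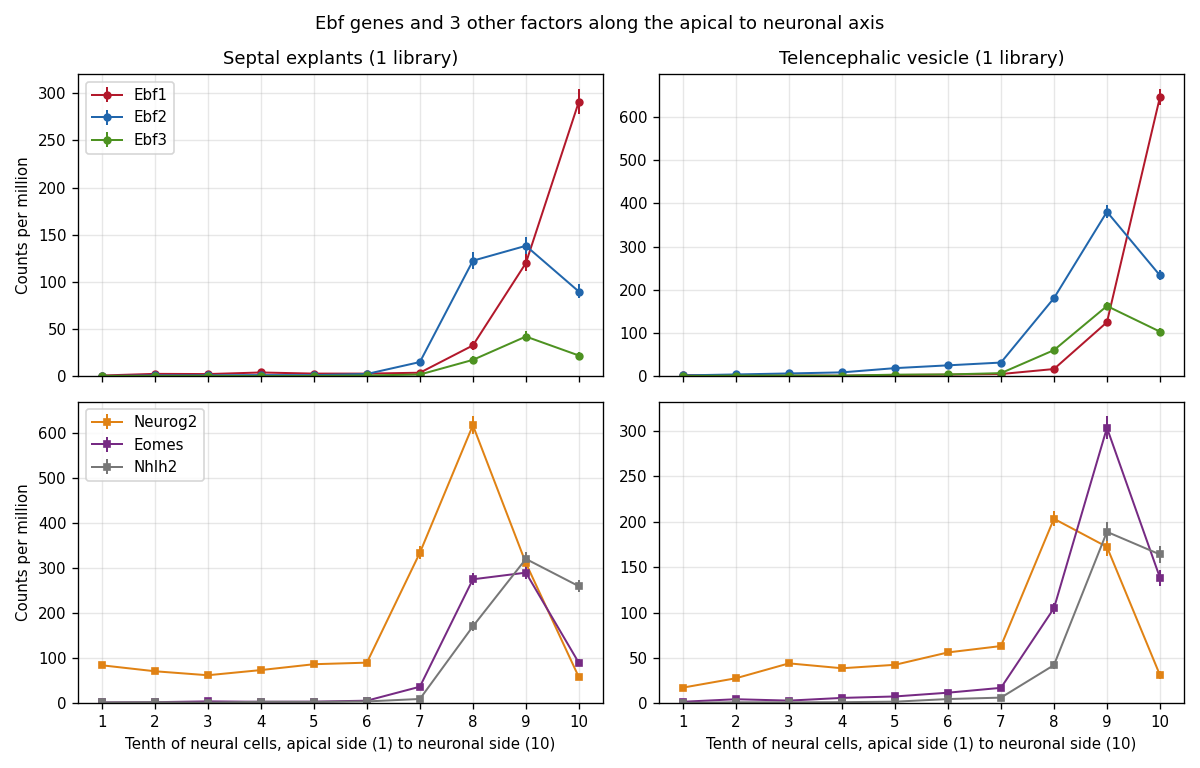
CPM of Ebf1, Ebf2 and Ebf3 (top) and of Neurog2, Eomes and Nhlh2 (bottom) in 10 equal bins of neural cells ordered from apical (1) to neuronal (10) by the differentiation score, for each library, with Poisson 95% intervals. Ebf2 and Ebf3 peaked in bin 9 in both libraries, while Ebf1 was highest in bin 10, at 291 CPM in the septal explants and 646 CPM in the vesicle.

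Which members were found together in a cell also differed between classes. In the septal explants, 333 of 967 neuron-like cells held none of the 3 genes and 104 (10.8%) held all of them. All 3 were found in 63 of 206 Trp73-high Cajal-Retzius-like cells (30.6%). In Trp73-low cells, Ebf1 alone (82 of 200) and Ebf1 with Ebf2 (65) were the most frequent. Ebf1 with Ebf2 was also frequent in pallial glutamatergic-like neurons (80 of 223), Ebf2 alone was so in basal progenitor-like cells (224 of 490), and 66 of 114 septal glutamatergic-like neurons held none.

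In the vesicle, 74 of 189 Trp73-high Cajal-Retzius-like cells held all 3 (39.2%) and 2 held none. Trp73-low cells most often held Ebf1 with Ebf2 (49 of 108), with all 3 in 28 (25.9%). Basal progenitor-like cells most often held Ebf2 with Ebf3 (274 of 646), whereas Isl1-type GABAergic-like cells mostly held Ebf1 alone (90 of 391) or none (264). None of the genes was found in 359 of 376 Lhx6-type cells. Mesenchyme-like cells held Ebf1 alone (108 of 494), Ebf1 with Ebf3 (106) or Ebf3 alone (61), and Ebf1 with Ebf3 but no Ebf2 was in 18 of 143 septal glutamatergic-like neurons and 16 of 189 Trp73-high cells. A cell in which a gene was not found may still express it, since these counts depend on depth.

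**Figure D3:**
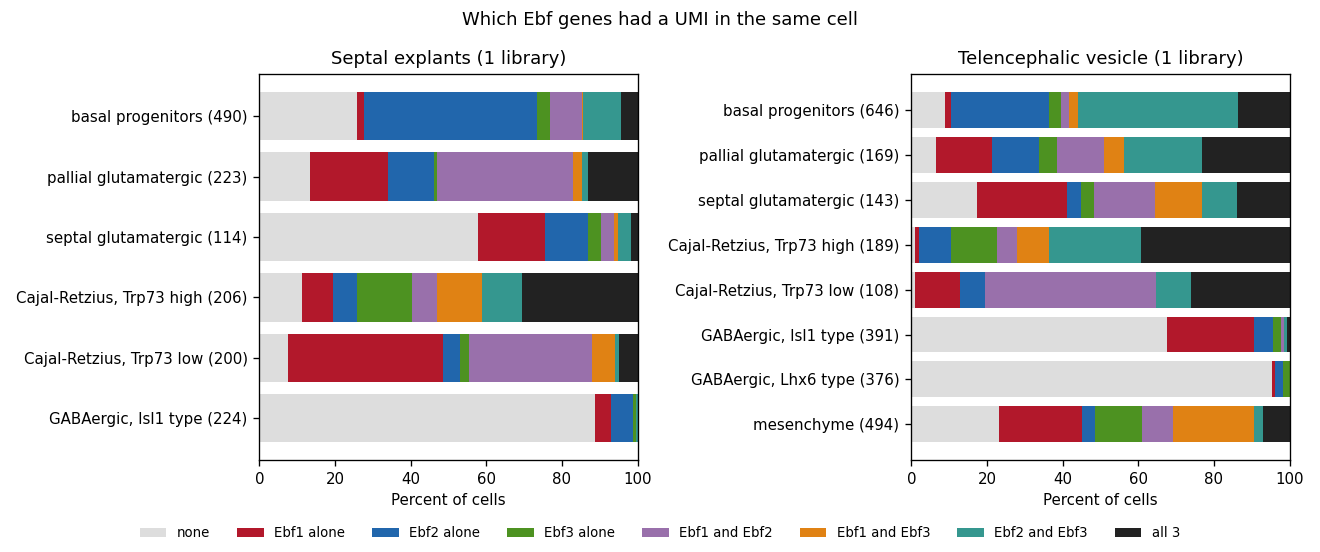
Percent of cells in which none, 1, a pair or all 3 of Ebf1, Ebf2 and Ebf3 had at least 1 UMI, stacked for 6 septal and 8 vesicle classes. All 3 were found together in 30.6% and 39.2% of the Trp73-high Cajal-Retzius-like cells, and most Isl1-type GABAergic-like cells of the vesicle held Ebf1 alone (90 of 391) or none (264).

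Whether the genes were found in the same single cells more often than their class explains was asked by setting the observed number of cells with a pair beside the number expected from their shares within each cluster and depth group. Over all septal neuron-like cells, with no regard to cluster, Ebf1 and Ebf2 were found jointly in 267 cells, 1.43 times (1.26 to 1.61) the product of their shares. Within clusters and depth groups, the ratio was 1.04 (0.920 to 1.17). The pair Ebf1 and Ebf3 (146 cells) went from 1.32 to 1.04 (0.877 to 1.22), and Ebf2 and Ebf3 (137 cells) from 1.59 to 1.11 (0.931 to 1.31). Each pair was above 1 over all neuron-like cells, and each interval took in 1 once cluster and depth were held. The Poisson intervals let the joint count vary freely, while the expectation holds the number of cells with each gene. They are thus too wide here, and an interval that takes in 1 does not show that no excess remains. For Ebf2 and Ebf3, 137 cells were observed and 123.6 expected.

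The vesicle gave like values. The ratio for Ebf1 and Ebf2 (270 cells) was 1.71 over all neuron-like cells and 1.02 (0.899 to 1.15) within clusters and depth groups. For Ebf1 and Ebf3 (207 cells) these were 1.63 and 0.990 (0.860 to 1.13), and for Ebf2 and Ebf3 (271 cells) 2.26 and 1.06 (0.940 to 1.197). Among basal progenitor-like cells, Ebf1 and Ebf3 were found jointly in 23 septal cells, 1.64 times (1.04 to 2.46) the expected number, and in 103 vesicle cells, 1.18 times (0.961 to 1.43). Nearly all intervals within single classes took in 1. Besides the septal value, those that did not were Ebf2 with Ebf3 in 6 Isl1-type cells (3.34, 1.22 to 7.26) and 4 macrophage-like cells (4.67, 1.27 to 11.95) of the vesicle. Doublets, barcodes that hold more than 1 cell, may remain in both libraries, and their part in these joint counts was not tested.

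**Figure D4:**
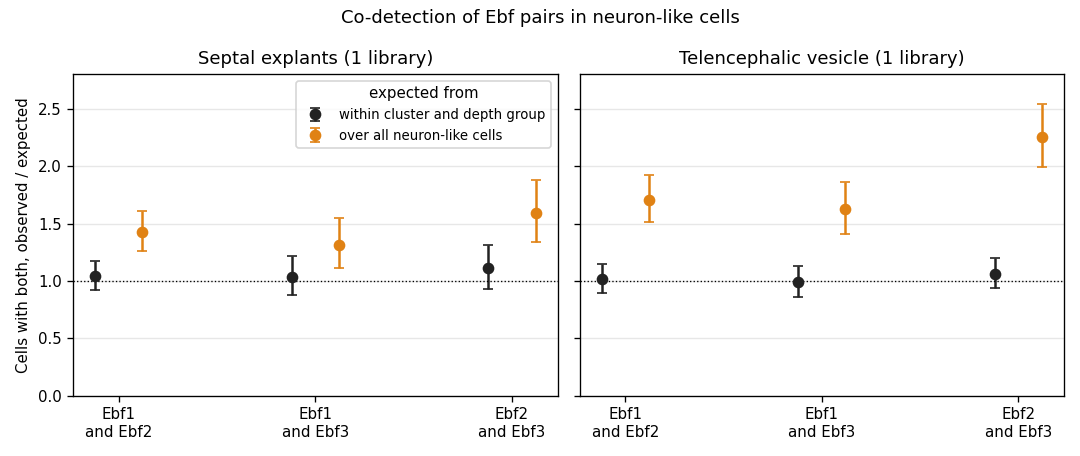
Observed over expected number of neuron-like cells that held both genes of a pair, for Ebf1 with Ebf2, Ebf1 with Ebf3 and Ebf2 with Ebf3 in each library, with the expectation from shares over all neuron-like cells (orange) or within clusters and depth groups (black), bars being Poisson 95% intervals and the dotted line 1. The orange values ran from 1.32 to 2.26 and the black values from 0.990 to 1.11.

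Cells with and without a UMI of a member were then compared within a class, for lists of genes and over all genes with enough UMIs, as values with no test. In the Isl1-type GABAergic-like class of the vesicle, the 96 Ebf1-positive cells had Tac1, the substance P precursor gene of striatal neurons, at 283.5 CPM against 24.6 CPM in the 295 others, a ratio of 11.53 (8.46 to 16.0). Zfp503, a striatal zinc finger gene, had a ratio of 4.29, and Sp9, a factor of the ganglionic eminences, had 0.097. Among 7248 genes, 4.86% were at least 2-fold higher and 3.13% at least 2-fold lower in the Ebf1-positive cells. Of 8 neuronal maturation genes, 4 were higher, among them Ina (2.99) and Mapt (2.72), and of 11 striatal genes with enough UMIs 2 were higher and 2 lower. The positive cells were deeper (median 8857 against 6424 UMIs) and had the higher differentiation score (4.98 against 2.97), and the part of either in these ratios was not tested.

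The same comparison inside the 1 cluster with most of the Ebf1, added after the data were seen, set 88 positive against 53 negative cells whose scores were closer (5.03 and 4.64) and whose median depths were 9016 and 7751 UMIs. Tac1 was at 299 CPM against 108 CPM, a ratio of 2.77 (2.02 to 3.87), and Reln at 118 against 16.4 CPM, a ratio of 7.21 (3.39 to 18.4). Six3, a homeobox gene of striatal precursors, was at 151 against 565 CPM, a ratio of 0.27 (0.215 to 0.331), Sp9 had a ratio of 0.20 (0.104 to 0.369) and Foxp2 0.46 (0.348 to 0.595). Bcl11b (1.58, 1.26 to 1.98) and Zfp503 (1.69, 1.28 to 2.27) were moderately higher, while Isl1 (1.07, 0.918 to 1.25) and Gad2 (1.02) were near 1. At 2-fold, 1 of 11 striatal genes was higher and 3 lower, and none of the 8 maturation genes passed 2-fold, their ratios running from 0.67 for Nefl to 1.19 for Gap43. Over all 4658 genes, 2.94% were at least 2-fold higher and 1.05% at least 2-fold lower.

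**Figure D5:**
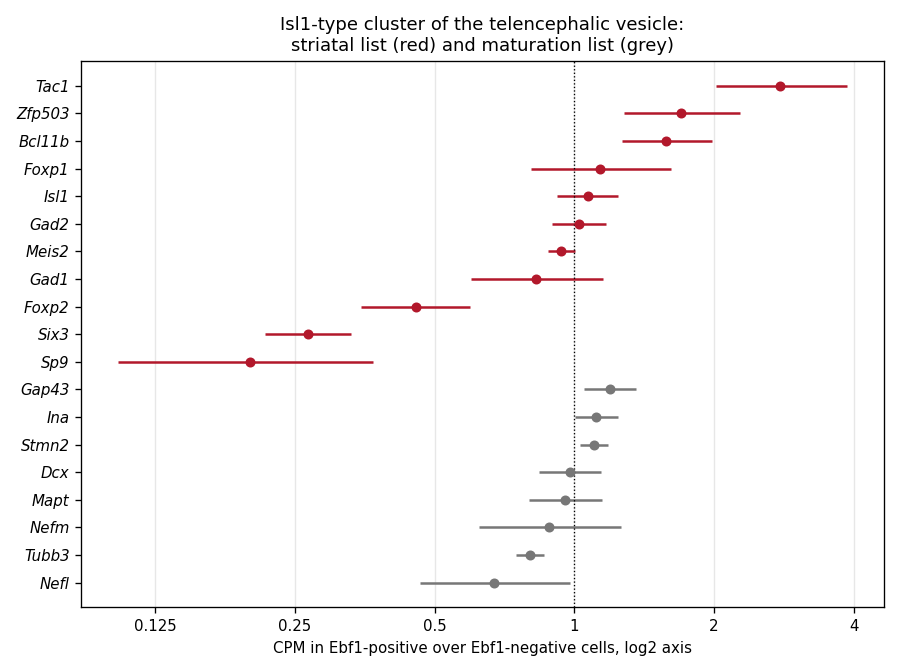
Ratio of CPM in Ebf1-positive to Ebf1-negative cells (log2 axis) inside the Isl1-type cluster of the vesicle that holds most Ebf1, for 11 striatal genes (red) and 8 maturation genes (grey), with 95% intervals from the counts. Tac1 stood at 2.77 and Six3 at 0.27, and the maturation genes lay between 0.67 and 1.19.

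In septal pallial glutamatergic-like neurons, 160 Ebf1-positive and 63 Ebf1-negative cells had near-equal median depths (12989 and 12968 UMIs) and scores (3.01 and 2.87). Lhx5, a homeobox gene of Cajal-Retzius cells, was at 65.7 against 16.7 CPM, a ratio of 3.94 (2.27 to 7.38), Calb2 had a ratio of 2.57 and Zic1 2.38. Of 5 Cajal-Retzius genes with enough UMIs 3 were at least 2-fold higher, and of 7 bHLH and 8 maturation genes none. Of 6348 genes 1.78% were higher and 0.756% lower at 2-fold. By Ebf2, in 140 positive against 83 negative cells, the ratio was 7.58 (4.12 to 15.5) for Lhx5, 2.78 for Calb2 and 2.19 for Nhlh2. It was 0.48 (0.444 to 0.524) for Neurod6, a gene of cortical projection neurons, at 537 against 1112 CPM, with 1.35% of genes higher and 1.69% lower. The cells with Ebf1 or Ebf2 thus had more Lhx5 and Calb2 than their class mates. Each gene was also higher with the other, with Ebf2 1.62-fold (1.32 to 2.01) higher in the Ebf1-positive cells and Ebf1 2.004-fold (1.68 to 2.41) higher in the Ebf2-positive cells. The class joins the 3 clusters whose Ebf1 and Ebf2 were low and high together, and within cluster and depth group the pair was found jointly 0.983 times (0.807 to 1.18) the expected number.

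In CPM, the pallial glutamatergic-like neurons of the vesicle gave another picture for that pair. Their 116 Ebf2-positive cells had Ebf3 at 249 against 71.3 CPM, a ratio of 3.49 (2.27 to 5.61), but Ebf1 at 243 against 456 CPM, a ratio of 0.53 (0.432 to 0.661). Zfp423, whose protein binds Ebf proteins, was at 115 against 49.6 CPM, a ratio of 2.32 (1.37 to 4.21), and Lhx5 had 4.09, while 2.57% of 4237 genes were higher and 0.755% lower. These were the only genes at least 2-fold higher of 2 Ebf-binding zinc finger genes and of 5 Cajal-Retzius genes with enough UMIs. None of 5 bHLH and 7 maturation genes passed 2-fold in either direction. The 91 Ebf3-positive cells had Ebf2 at 734 against 323 CPM, a ratio of 2.27 (1.90 to 2.73), Zfp423 at a ratio of 2.70 (1.72 to 4.41), Lhx5 at 3.15 and Ebf1 at 0.66, with 1.89% higher and 0.283% lower. The counts for these lists were the same by Ebf3, except that 1 of the 5 Cajal-Retzius genes was also at least 2-fold lower. The positive cells had the lower score in both splits (2.77 against 3.17 for Ebf2, 2.67 against 3.06 for Ebf3) and the greater depth (7170 against 5892 UMIs, and 7195 against 6196 UMIs), and the part of these was not tested.

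In the septal Trp73-high Cajal-Retzius-like cells, the 139 Ebf3-positive cells had Ebf1 at 250 against 82.7 CPM in the 67 others, a ratio of 3.02 (2.30 to 4.02), and Calb2 at a ratio of 2.82 (2.21 to 3.63). Neurog2 (0.25) and Onecut2 (0.28) were lower, and Ebf2 had a ratio of 1.34 (1.03 to 1.76). Of 8 Cajal-Retzius genes 1 was at least 2-fold higher, and of 7 bHLH genes 1 was lower. Over 5957 genes these shares were 1.06% higher and 1.02% lower. The Ebf3-positive cells had a score of 2.84 against 2.53 and a depth of 11681 against 10680 UMIs. The class joins clusters whose Ebf1 levels differed, as given above. Within cluster and depth group, Ebf1 and Ebf3 were found jointly 1.05 times (0.841 to 1.30) the expected number.

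The wider pathway was read from lists of genes, set against the 17.7% and 16.4% of all genes that were at least 2-fold higher in neuron-like than in apical progenitor-like cells and the median ratios of 1.03 and 0.95 over all genes. Of the bHLH genes upstream of or beside Ebf, 7 of 9 were higher in the septal explants (median ratio 74.5) and 7 of 10 in the vesicle (median 22.2). Nhlh2 had ratios of 83.4 and 51.6, Nhlh1 of 74.5 and 50.6 and Neurod1 of 87.1 and 40.8, in the range of the Ebf genes. The Neurog genes, which act earlier, differed, since Neurog2 (0.69 and 1.26) was not 2-fold higher and Neurog1 (2.88 and 2.65) was. All 8 maturation genes were higher in both libraries (medians 25.5 and 28.4), as were 8 of 10 and 7 of 10 Cajal-Retzius genes, among them Reln (19.8 and 10.8). Onecut genes, a family of early neuronal homeobox genes, were higher in 2 of 2 and 3 of 3 cases, striatal genes in 8 of 12 and 7 of 13, and genes of the medial ganglionic eminence in 2 of 4 and 4 of 6. Zfp423 and Zfp521, whose proteins bind Ebf proteins, were not, with 0.94 and 0.77 in the septal explants and 0.64 and 0.50 in the vesicle. The lists share genes with the markers that named the neuron-like classes, among them Neurod2, Neurod6, Nhlh2, Reln, Calb2, Onecut2, Isl1, Gad2 and Lhx6. All maturation genes but Nefl and Nefm are part of the differentiation score, which chose the cells that were clustered again. These counts were therefore partly set by how the classes were made.

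In basal progenitor-like cells over apical progenitor-like cells, where 6.85% and 6.99% of all genes were higher and the median ratio was 0.92 in both libraries, 8 of 9 bHLH genes were higher in both libraries (medians 60.5 and 33.2). The share was 5 of 8 for the maturation genes in both (medians 2.76 and 3.84) and 6 of 9 and 6 of 10 for the Cajal-Retzius genes. Striatal genes were higher in 2 of 11 and 3 of 13, and Zfp423 and Zfp521 in neither library. The striatal medians were 0.65 and 0.89, with 3 and 2 genes at least 2-fold lower. Mesenchyme genes, a check on cells of other kinds, were higher in none of 4 septal genes and 1 of 7 vesicle genes, both there and among the neuron-like cells. Neurog1, Neurog2, Neurod4 and Nhlh1 are among the markers that named the basal progenitor-like cells. The bHLH count in these cells was therefore partly set by the naming.

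Genes with the pattern most like each member were ranked by Pearson correlation of log2(CPM + 1) over the clusters of at least 50 cells (34 septal, 41 vesicle). The clusters share 1 library and its depth, so that the values are a description. Nearest to Ebf1 were Adcyap1 (0.935), a neuropeptide gene, Pde2a (0.93), Barhl2 (0.927), Tmem163 and Nxph4 (0.92 each) in the septal explants, and Tbr1 (0.857), Nxph4 (0.852), Barhl2 (0.838), Ndufa4l2 (0.836) and Ank3 (0.828) in the vesicle. Barhl2, a homeobox gene, and Nxph4, a neurexophilin gene, were in both. Nearest to septal Ebf2 were Fam110a (0.934), Neurod1 (0.933), Serpini1 (0.92), Nhlh2 (0.916) and Chrna3 (0.909).

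In the vesicle, 4930438E09Rik, the antisense gene inside Ebf2, was nearest to Ebf2 (0.936), and reads of the pair may not be cleanly separated. Eomes (0.932), Ebf3 (0.919), Neurod1 (0.918) and Nhlh1 (0.908) came next. Nearest to Ebf3 were Nhlh2 (0.916), Clvs1 (0.911), Trim9 (0.899), Tcp11 (0.896) and Uncx (0.893) in the septal explants, and Cerkl (0.923), Ebf2, 4930438E09Rik (0.911), Gm49144 (0.903) and Slc22a15 (0.897) in the vesicle. Among the members themselves, Ebf2 and Ebf3 were the most alike (0.875 septal, 0.919 vesicle), ahead of Ebf1 with Ebf3 (0.806 and 0.748) and Ebf1 with Ebf2 (0.715 and 0.674).

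Last, septal cells with at least 1 tdTomato UMI were set beside those in which none was found, which can come from embryos of either age. A single UMI can also be free RNA, so that it does not establish descent from a Dbx1 progenitor. Among progenitor-like cells, tdTomato was found in 57 subpallial (734 without), 61 pallial (765 without) and 81 septal ones (847 without). The part of free RNA was not tested. Lineage and age cannot be told apart in this contrast. Over the neuron-like cells, 90 with tdTomato had Ebf2 at 45.6 CPM (34.6 to 59.1), against 108 CPM (101.5 to 114) in 877 without. Ebf1 was at 153 CPM (132 to 176) against 229 CPM (220 to 239), and Ebf3 at 28.8 CPM (20.2 to 39.9) against 31.7 CPM. The lower Ebf2 was also found within pallial glutamatergic-like neurons (53.5 CPM, 32.2 to 83.6, against 210 CPM, 193 to 228, in 22 and 201 cells) and within Trp73-high Cajal-Retzius-like cells (44.8 CPM, 25.1 to 74.0, against 141 CPM, 125 to 158, in 24 and 182 cells). By share of cells with Ebf2, the intervals overlapped in each case. The shares were 34.4% against 39.2% of neuron-like cells and 40.9% (20.7 to 63.65) against 65.2% (58.15 to 71.7) of the pallial ones. In Trp73-high cells they were 37.5% (18.8 to 59.4) against 56.6% (49.1 to 63.9). The intervals of CPM count UMIs, which few cells held here. Among 62 basal progenitor-like cells with tdTomato, Ebf2 was at 141 CPM (116 to 170) against 164.5 CPM in the 428 others, and the CPM intervals overlapped. They also overlapped for Ebf2 in Trp73-low cells (71.4 against 96.6 CPM) and septal glutamatergic-like neurons (22.0 against 34.8 CPM). Ebf1 was lower too in pallial glutamatergic-like neurons (130 against 247 CPM) and Trp73-low cells (344 against 516 CPM, in 15 and 185 cells). Its shares of cells had overlapping intervals in both, at 54.55% against 73.6% and 73.3% against 85.4%. The CPM intervals of Ebf1 overlapped in Trp73-high cells and septal glutamatergic-like neurons.

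YFP, which can come from the E11.5 embryos alone, gave the contrast in the other direction when cells with at least 3 YFP UMIs were set against cells with 0, a choice made after the data were seen. In pallial glutamatergic-like neurons, Ebf2 was at 302 CPM (273 to 332) in 98 YFP cells and at 82.8 CPM (67.2 to 101) in 88 cells without, and Ebf1 at 344 against 145 CPM. Over all neuron-like cells, Ebf2 was at 117 against 68.0 CPM and Ebf1 at 238 against 197 CPM, in 540 and 288 cells. The direction was not shared by every class. In Trp73-high Cajal-Retzius-like cells, Ebf1 was at 184 CPM (163 to 207) in 124 YFP cells and 231 CPM (191 to 277) in 48 without, and Ebf2 at 132 against 112 CPM, with overlapping intervals. In Trp73-low cells, Ebf2 was at 87.7 against 90.3 CPM and Ebf1 at 499.8 against 486 CPM, again overlapping.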

How the data were processed

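The authors deposited raw counts, as UMIs per gene and barcode with no normalisation. The submitters' processing notes name mm10 and Cell Ranger 2.1.1 for the septal explants (kit v2) and Cell Ranger 7.1.0 for the vesicle (kit v3.1). Whether intronic reads were counted is not given in the sources used here. Barcodes over 3 median absolute deviations in mitochondrial share were dropped, then Scrublet doublets (60 septal and 713 vesicle). The septal number depended on the seed and was 5 or 6 with other seeds. Doublets made up 1.102% of septal and 5.717% of vesicle barcodes, below the 4.355% and 9.977% expected, so that doublets may remain. Clustering used scanpy 1.11.5 (2000 variable genes, 30 components, 15 neighbours, Leiden resolution 1.5 at both levels) without Ebf, reporter, sex-linked and cell cycle genes. A cluster was named from marker lists, in Python 3.11.15. Shares were also computed after thinning to 8000 UMIs (511 septal cells left out) or 3500 UMIs (1145 vesicle cells left out). Genes named are Ebf1 to Ebf4, the 5 most correlated with each member (at least 50 UMIs), and members of the lists, some of which are not reported here. Gene positions are from GENCODE M21. The ratios of CPM and their intervals were tested on simulated counts. That test did not cover the clustering, naming, co-detection or binning. Members and lists were chosen with earlier results of these data known.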

Additional observations from a re-analysis of the deposited data

How the results depend on the processing

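No paired analysis was possible because each tissue has 1 library, and for the same reason no replicate could be left out. Of the main results under other settings, 123 moved by less than their counting interval and 53 by more, and of the other results 138 and 133. No ratio passed from one side of 1 to the other beyond its interval, but the order of classes changed for Ebf1 and Ebf2, and for Ebf3 by the marker gate. The cause was not tested. Class borders shifted between clusterings. For septal Ebf1 in Trp73-low Cajal-Retzius-like cells, the level was 592 CPM with no cell filter, 639.7 with doublets kept, 285 and 614 at Leiden resolutions 0.8 and 2.5, 575 with cell cycle genes kept and 628 with Ebf genes kept. Septal Ebf2 in pallial glutamatergic-like neurons was 156.5, 169 and 121 CPM with no filter, doublets kept and resolution 0.8, 175 and 165 with cell cycle or Ebf genes kept, and 167 by a marker gate. Its neuron to apical ratio was 85.4, 79.4, 88.8 and 87.9 with no filter, doublets kept, another seed and Ebf genes kept. Septal Ebf3 in Trp73-high cells was 85.1 CPM by the gate. In the vesicle, Ebf1 in Isl1-type cells was 870.5 CPM with no filter, 926 at resolution 2.5, 1070 with another seed, 911 with Ebf genes kept and 319 by the gate. The neuron to apical ratio of Ebf1 was 89.4 and 167 at resolutions 0.8 and 2.5. That of Ebf2 was 15.1, 14.4, 20.1, 14.8 and 19.2 with no filter, doublets kept, another seed, cell cycle genes kept and Ebf genes kept. That of Ebf3 was 28.7, 27.0, 45.6, 26.3 and 37.2 with doublets kept, resolution 0.8, another seed, cell cycle genes kept and Ebf genes kept. Ebf2 in Trp73-low cells was 75.8, 633, 396, 615 and 362 CPM with doublets kept, resolution 2.5, another seed, cell cycle genes kept and Ebf genes kept. Ebf3 in Trp73-high cells was 327 CPM with no filter and 120 by the gate. Counting a cell as positive at 2 UMIs gave shares of 78.5% for septal Ebf1 in Trp73-low cells, 48.4% for septal Ebf2 in pallial neurons, and 37.4% and 61.9% for septal and vesicle Ebf3 in Trp73-high cells, which were 55.0% and 65.8% after thinning. Co-detection over plain products was 1.43, 1.32 and 1.59 in the septal explants and 1.71, 1.63 and 2.26 in the vesicle. Depth limits every share of cells. The bins without subpallial cells, the split inside the Isl1-type cluster, the collagen split and the YFP contrast were added after seeing the data.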

Other observations

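Several clusters that the markers left unnamed were among the highest for Ebf genes. In the septal explants, 128 cells led by Barhl2 and Uncx, with the pallial gene Tbr1 at 963 CPM, had Ebf1 at 282 CPM (253 to 312) in 75% of cells and Ebf2 at 103 CPM in 50%. In the vesicle, a cluster of 129 cells with Tbr1 at 384 CPM had Ebf1 at 748 CPM, Ebf2 at 80.5 CPM and Ebf3 at 114 CPM. Another, of 111 cells, with Tbr1 at 329 CPM and Reln at 117 CPM, had 627, 54.7 and 33.0 CPM of the 3 genes in that order. Both carried Ebf1 above the septal and pallial glutamatergic-like classes of that library, with Gad2 near 0 (3.057 and 3.097 CPM).

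A pair of smaller vesicle clusters was high for Ebf2 and Ebf3. In 67 cells with Lhx5 at 479 CPM and Lhx1 at 464 CPM, homeobox genes of Cajal-Retzius cells, but Trp73 at 1.72 CPM, Ebf1 was at 572 CPM, Ebf2 at 724 CPM and Ebf3 at 386 CPM, and 38 cells (56.7%) held all 3. In 91 cells led by Dbx1, with the homeobox genes Sim1 and Otp at 181 CPM each, Ebf2 was at 642 CPM in 89.0% of cells and Ebf3 at 402 CPM in 74.7%, while Ebf1 was at 28.5 CPM. The cluster of 433 hem-like cells led by Rspo1 and Rspo2 had Ebf2 at 57.1 CPM in 18.2% of cells, above the 41.9 CPM of all hem-like cells.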
